A study of Bos taurus with 45 samples.

Results

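Bovine blastocysts cultured without added cytokine were compared by the fate of their transferred sister part, and 18 of the 45 libraries of the study enter that comparison. The members are the demi-blastocyst RNA-seq libraries labelled vehicle that hold 1000000 counts or more and whose recipient either was pregnant at days 30 and 60 of gestation or was not pregnant at day 30. The first group, called maintained, has 4 embryos, and the second, called not established, has 14. Of the 20 vehicle libraries in these 2 outcomes, maintained replicate 8 and not established replicate 29 fell short of the total and were left out. All embryos were made in vitro with X-sorted sperm, grown in serum-free medium with vehicle from day 5 to day 7, and cut by hand at day 7. One part went to a synchronized recipient cow and the other to sequencing, so the outcome belongs to a part that was not sequenced. Per the labels, the smaller or less intact part was sequenced when the cut was uneven. The labels give no sire, dam, recipient or day of culture, so the p-values below measure only the spread between these embryos.

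A blastocyst at this stage holds an outer epithelium, the trophectoderm, which forms the placenta, and an inner cell mass, which forms the embryo proper. In cattle the embryo must hatch, elongate and release interferon tau from its trophectoderm before the maternal corpus luteum would regress, and many in vitro embryos fail before the first pregnancy examination. The outcome also depends on the recipient. The deposited table names genes by Ensembl identifier only, and none of its 24616 identifiers could be paired with a symbol in the supplied gene table, so 0 of 32 prepared gene lists, lineage markers among them, were run. The labelled cell content (trophectoderm and inner cell mass) was therefore not checked against its markers. In such bulk samples fewer cells of a type and less RNA per cell cannot be told apart.

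The 18 libraries of both outcomes had overlapping depth and complexity. The maintained embryos had totals of 5016623, 7718254, 6139032 and 6140631 counts in replicates 4, 5, 6 and 7. The not established embryos ranged from 3940101 to 7544831 counts. A gene is called read in an embryo here when it has 5 or more counts. Maintained replicates 4 and 6 read 2054 and 2191 genes, and replicates 5 and 7 read 5055 and 5569. The maintained group thus held a pair of narrow and a pair of broad libraries with none between, while the not established embryos read a lowest of 1646, a median of 3580 and a highest of 5190 genes. The mean number of genes read was 3717 ± 1854 (SD, n = 4) with a maintained and 3424 ± 1026 (SD, n = 14) with a not established pregnancy, a difference smaller than either spread (exact permutation test, two-sided, p = 0.678 over 3060 regroupings, adjusted p = 0.678 over 3 measures). The sign of this small difference turned without maintained replicate 5 or 7. Each library's own 20 most abundant genes took 31.5% ± 4.31 (SD, n = 4) of its counts where the pregnancy was maintained and 29.5% ± 5.48 (SD, n = 14) where none was established (two-sided exact permutation test, p = 0.513, adjusted p = 0.678).

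**Figure D1:**
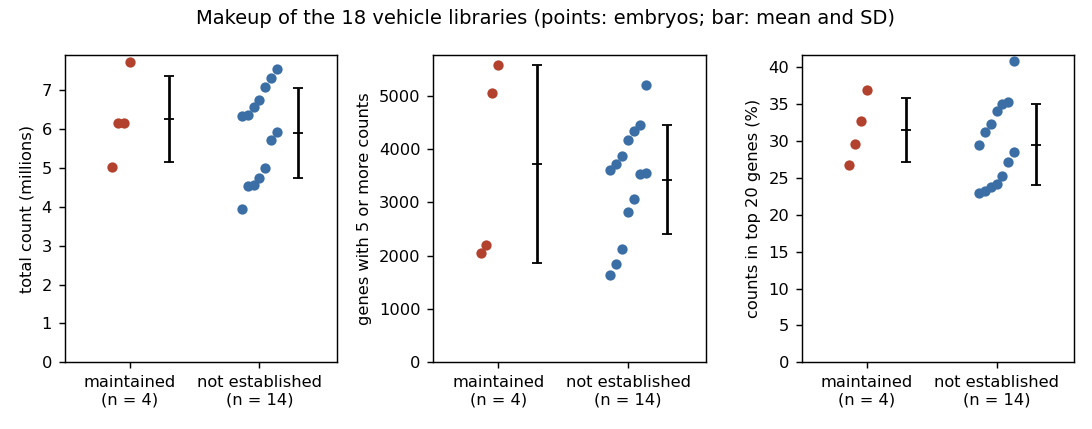
Total count, number of genes with 5 or more counts and percent of counts in each library's 20 most abundant genes, for 4 maintained and 14 not established vehicle embryos. Points are embryos and bars are the mean and SD; the maintained embryos lie within or just outside the range of the not established ones, and their numbers of genes read fall into a low pair (2054 and 2191) and a high pair (5055 and 5569).

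The most abundant transcripts stood at similar levels in the maintained and not established embryos. The 20 genes with the highest mean level had between 4289 and 55410 CPM (counts per 1000000 of a library's total), and each was read in all 18 libraries. Their fitted log2 changes, maintained minus not established, lay between -0.22 and 0.40, and 17 of 20 were above 0. The smallest unadjusted p among these 20 was 0.0503 (edgeR quasi-likelihood test). For 19 of the 20 the 95% interval of the change lay within a 2-fold change in either direction. For those 19 genes a larger difference between the outcome groups was therefore outside the interval at this depth and number of embryos.

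Away from the most abundant genes the precision fell quickly. A total of 224 genes were read in every one of the 18 libraries, with a median log2 change of 0.01, 115 changes above 0 and 109 below. Their changes ranged from -3.44 to 1.88 with a median standard error of 0.91. In 24 of these 224 genes the 95% interval stayed within a 2-fold change. Of the 1130 genes read in 13 to 17 libraries none had so narrow an interval, and the median standard error was 1.80. It was 2.58 for the 1447 genes read in 9 to 12 libraries, 2.90 for 2346 genes read in 5 to 8 and 2.99 for 596 genes read in 4. Most tested genes could thus differ several-fold between the groups without such a difference being detectable here.

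The embryos differed from each other in the levels of shared genes as well as in which genes they read. Over the 224 genes read throughout, the SD of log2 CPM between embryos had a median of 0.88 in the maintained and 1.19 in the not established group. The SD was larger in the maintained group for 74 of the 224 genes (33.0%), with only 4 embryos behind each such SD. Their summed share of a library was 48.1% ± 4.59 (SD, n = 4) for the maintained and 46.4% ± 5.38 (SD, n = 14) for the other group. Pearson's r of log2 CPM between embryos over these genes had a median of 0.67 in the 6 pairs of maintained embryos, 0.61 in the 91 pairs of not established embryos and 0.63 in the 56 mixed pairs. The lowest and highest r were 0.54 and 0.81 in the first set, 0.38 and 0.80 in the second and 0.42 and 0.81 in the third. Maintained embryos were thus about as unlike each other as they were unlike the other group. Pairs share the library method and embryos recur across pairs, so these values are descriptive. Of the genes read by either embryo of a pair, a median of 28.9% were read by both in maintained pairs, 35.1% in not established pairs and 30.7% in mixed pairs.

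The outcome groups were then compared gene by gene, which asks whether a transcript in the sequenced part goes with the maintenance of pregnancy by its sister part. After the filter on low counts, 5743 genes were tested, and 0 were called at an adjusted p below 0.05 (0% of those tested; edgeR quasi-likelihood test, Benjamini-Hochberg adjustment). The smallest adjusted p was 0.601, and 0 genes were called at an adjusted p of 0.10. At an unadjusted p below 0.05 there were 329 genes, 5.73% of those tested, of which 40 (0.697%) had a higher and 289 (5.03%) a lower fitted level in maintained embryos. The fitted change was above 0 for 2415 genes (42.1%) and below 0 for 3328, with a median of -0.34. In 0 genes (0%) did the 4 maintained embryos all lie above all 14 others, and in 0 (0%) did they all lie below. Other tests on the same 18 libraries did call genes. DESeq2 called 244 of the 4417 genes for which it gave an adjusted p (5.52%), 2 higher (0.0453%) and 242 lower (5.48%) in maintained embryos. With sample quality weights, limma voom called 5 (0.0871%), all 5 higher, with 312 genes (5.43%) at an unadjusted p below 0.05. On simulated counts with no changed gene, DESeq2 also made many calls while edgeR made none. Counts without a changed gene cannot show how many true changes edgeR would miss. Those counts gave every gene the same spread, near the common one of these libraries, whereas precision here varied widely between genes. How many of DESeq2's calls on the real counts are false was therefore not tested. Its calls and adjusted p are given for comparison only.

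**Figure D2:**
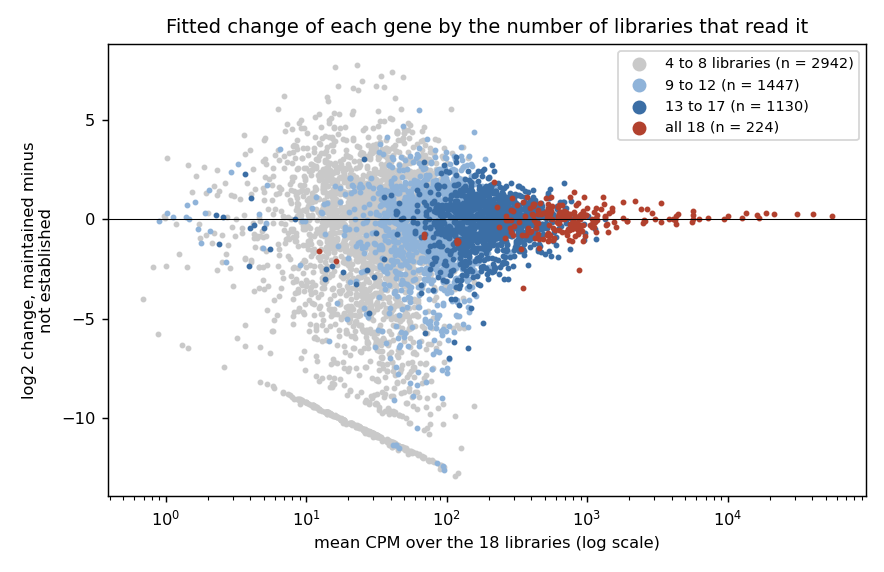
Fitted log2 change of each of the 5743 tested genes (maintained minus not established, vertical axis) against its mean CPM over the 18 libraries (horizontal axis, log scale), coloured by the number of libraries that read it. Changes narrow towards 0 for genes read in all 18 libraries, and the slanting line of points at the bottom holds genes with no count in any maintained embryo.

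The genes at an unadjusted p below 0.05 were mostly sparsely read ones. Among these 329, 128 were read in 4 of the 18 libraries (21.5% of the 596 such genes) and 181 in 5 to 8 (7.72% of 2346). A further 15 (1.04% of 1447) were read in 9 to 12 libraries, 3 (0.265% of 1130) in 13 to 17 and 2 (0.893% of 224) in all 18. In 249 tested genes no maintained embryo held a count, whereas in 0 tested genes was every not established embryo at 0. The filter treats the groups unequally here, since it asks for a sufficient count in as many libraries as the smaller group has. A gene missing from the maintained embryos needed 4 of 14 others to pass, and a gene missing from the not established embryos needed all 4 maintained. Of the 242 genes that DESeq2 called lower, 182 had no count in any maintained embryo (counting both directions, 5 of its 244 calls were read in 13 or more libraries). Single embryos weighed heavily throughout. Of the 5494 tested genes with a count in the maintained group, 4799 had over 50% of that group's summed CPM in 1 embryo. The largest share of 1 embryo had a median of 79.1% in the maintained and 43.4% in the not established group. A group of 4 favours larger shares than a group of 14.

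Apart from the fits that admit genes seen in single libraries, the calls made under other settings were mostly different genes. The DESeq2 calls did overlap with the low unadjusted p of the edgeR test used in the text. Of the 244, 210 had an unadjusted p below 0.05 in that edgeR test, against 5.73% of all genes it tested. Without a filter on low counts edgeR called 587 of 11496 genes (5.11%), 583 higher and 4 lower in maintained embryos, which is the opposite balance to that of DESeq2. Of those 583, 519 were read in no more than 1 maintained embryo, 5 in 3 or 4, and in all 583 a single embryo held over 50% of the group's sum. Not 1 of the 583 was among the 5743 genes that passed the filter. Fitting all 40 libraries above the limit on totals gave 467 calls in 11930 genes (3.91%), 466 higher and 1 lower. The filter is laxer there because 1 of the 6 groups has a single library, and 461 of these calls (98.7%) were among the 587 made with no filter (78.5% of those). DESeq2 shared 3 calls with the fit without a filter, 1.23% of its 244 calls and 0.511% of the 587. Adding the 2 shallow vehicle libraries gave 10 calls (0.203%), all higher, and edgeR's bias-adjusted deviance gave 13 (0.226%), all higher. The voom and the bias-adjusted calls had 1 gene in common.

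**Figure D3:**
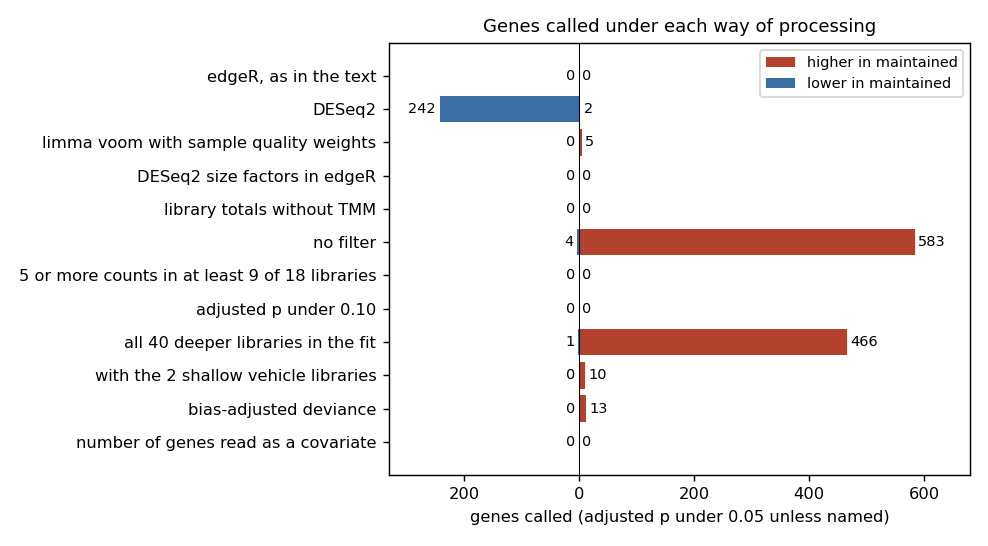
Number of genes called higher (right) and lower (left) in maintained than in not established vehicle embryos under each way of processing. The edgeR test used in the text and 5 alternatives called 0 genes, DESeq2 called 242 lower and 2 higher, and edgeR without a filter called 583 higher and 4 lower.

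The rule for named genes takes called genes, of which there were none, so the 2 identifiers with the smallest p in each direction are described instead; they were chosen after their values were seen and none of the 4 passed the test. ENSBTAG00000001258 had 319 CPM in maintained replicate 4, 12.3 in replicate 5, 0 in replicate 6 and 79.1 in replicate 7. It had no count in 13 of 14 not established embryos and 7.06 CPM in replicate 20. All but 1 of the 4 maintained embryos therefore stood above every not established one, and the last was level with the 13 at 0. Group means were 102.5 ± 148 (SD, n = 4) and 0.505 ± 1.89 CPM (SD, n = 14), and the log2 change was 7.78 with a standard error of 2.79 (adjusted p = 0.601, edgeR). Without maintained replicate 4 it was 5.99 (adjusted p = 0.68).

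ENSBTAG00000015659 had 645 CPM in maintained replicate 6, 75.7 in replicate 7 and no count in replicates 4 and 5. Not established replicates 13, 23 and 21 had 13, 3.04 and 0.157 CPM, and the other 11 embryos had no count. Replicate 6 held 89.5% of the maintained sum, and the groups overlap at 0. The log2 change was 7.39 with a standard error of 2.65 (adjusted p = 0.601, edgeR), and 4.47 without replicate 6 (adjusted p = 0.801).

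ENSBTAG00000000913 had no count in any of the 4 maintained embryos. Among the not established embryos the lowest level and the median were 0 and the highest was 1245 CPM, in replicate 24, which read the fewest genes of the 18 (1646) and held 60.0% of the group's sum. It was read in 6 of these 14 embryos and had no count in the other 8, so the maintained embryos were level with those 8. Its not established mean was 148 ± 332 CPM (SD, n = 14). That is 1236-fold the level of 0.120 CPM that 3 counts over the 4 maintained libraries would give. Without replicate 24 the ratio is 532-fold. These ratios leave out the spread between embryos, so they are no lower bounds on the difference between the outcomes. The 95% interval of the fitted log2 change, which includes that spread, reached from -21.04 to -4.755. It is no bound either, since the gene was picked for its small p and the interval is not adjusted for that choice. With the maintained group at 0, the fitted change also depends on the small count added. Adding the 2 shallow libraries moved the fitted log2 change from -12.90 to -2.51 (adjusted p = 1, edgeR). The adjusted p was 0.601 (edgeR) and 4.97e-13 with DESeq2.

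ENSBTAG00000038025 likewise had no count in the maintained embryos. In the not established group it reached 1090 CPM in replicate 19 and 884 in replicate 16, with 117 in replicate 20, 91.7 in replicate 21, 2.79 in replicate 14 and 0.152 in replicate 22. The other 8 embryos had no count. Its mean of 156 ± 356 CPM (SD, n = 14) is 1300-fold the same level of 3 counts, and 703-fold without replicate 19. These ratios are no lower bounds either. The 95% interval of the fitted log2 change reached from -21.13 to -4.394, and for the same reasons it is no bound. The adjusted p was 0.601 (edgeR) and 8.03e-09 with DESeq2. The calls by DESeq2 for both of these genes thus set a minority of embryos with high levels against 4 embryos at 0.

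**Figure D4:**
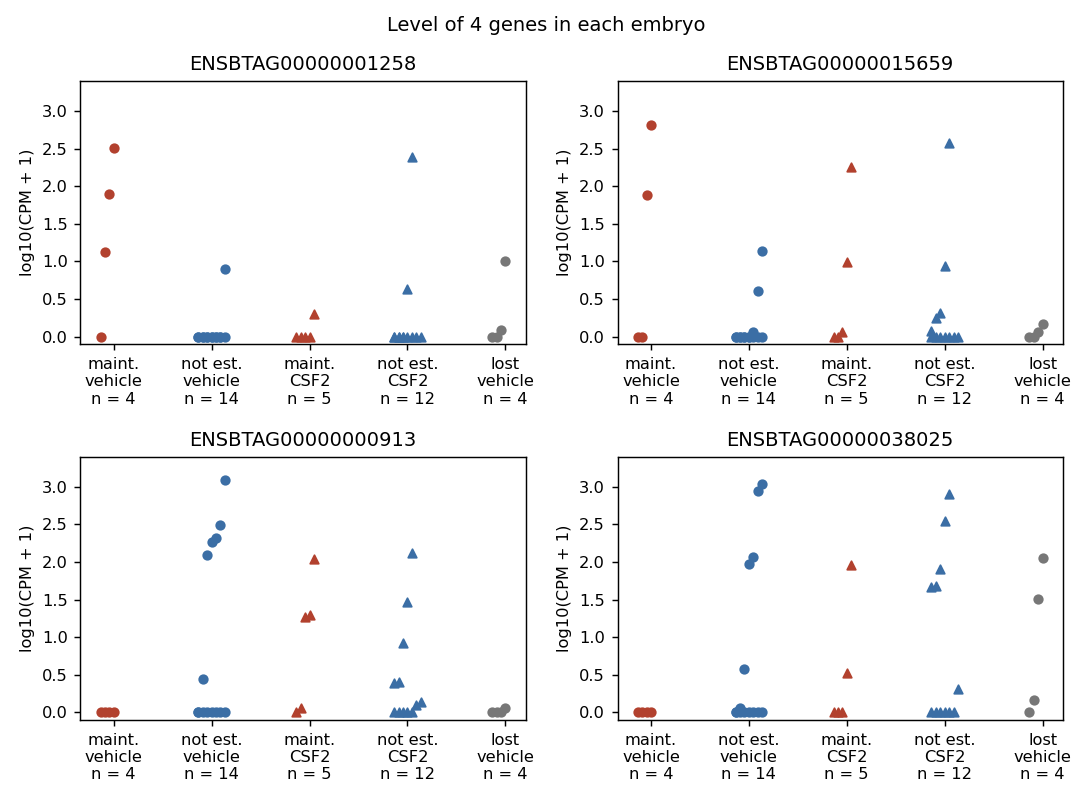
Level of the 4 genes in each embryo as log10(CPM + 1), for the vehicle embryos compared in the text (circles), for CSF2 embryos of the same outcomes (triangles) and for vehicle embryos of lost pregnancies (grey circles). The highest level is 1245 CPM of ENSBTAG00000000913 in a not established vehicle embryo, and the 4 maintained vehicle embryos are at 0 for both genes in the lower panels. The order of the group means turns in the CSF2 embryos for ENSBTAG00000001258 and ENSBTAG00000000913. For the former, most of the not established CSF2 mean comes from 1 embryo at 241 CPM. For the latter, most of each CSF2 mean comes from 1 embryo, at 108 CPM (maintained) and 129 CPM (not established).

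Embryos cultured with 10 ng/ml of CSF2 (colony stimulating factor 2, a cytokine) give a separate set of 5 maintained and 12 not established libraries with no embryo in common. There the maintained embryos had 0.197 ± 0.441 CPM (SD, n = 5) of ENSBTAG00000001258 and the others 20.4 ± 69.6 CPM (SD, n = 12), the opposite order to vehicle. Most of the latter mean came from 1 embryo, not established replicate 1 at 241 CPM. Replicate 25 had 3.33 CPM and the rest of the not established CSF2 embryos had no count. ENSBTAG00000015659 had 37.6 ± 79.1 (SD, n = 5) and 32.6 ± 110 CPM (SD, n = 12), with 179 CPM in maintained replicate 2 and 381 CPM in not established replicate 1. ENSBTAG00000000913, which had no count in maintained vehicle embryos, was read in 3 of 5 maintained CSF2 embryos and in 5 of 12 not established ones. Its means were 28.9 ± 45.1 (SD, n = 5) and 14.1 ± 37.1 CPM (SD, n = 12) in this order (log2 change 0.997, adjusted p = 1, edgeR). Most of each mean came from 1 embryo, maintained replicate 2 at 108 CPM and not established replicate 28 at 129 CPM. ENSBTAG00000038025 kept its order: it was read in 2 of 5 maintained embryos, at 90.0 and 2.37 CPM, and the 12 others had a mean of 111 ± 241 CPM (SD, n = 12; log2 change -2.41, adjusted p = 1, edgeR). Within vehicle, the 4 embryos of lost pregnancies had 2.32 ± 4.48, 0.154 ± 0.225, 0.0397 ± 0.0793 and 36.2 ± 53.3 CPM (SD, n = 4) of the 4 genes in this order.

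Across genes, the sign of the change with vehicle and with CSF2 was the same about as often as it differed. Of the 329 genes at an unadjusted p below 0.05 with vehicle, 153 also passed the filter in the CSF2 fit, and 79 of these (51.6%) had the same sign there. Over all 4350 genes in both fits the share was 50.5%. Of the 22 that were higher with vehicle 10 were higher with CSF2 (45.5%, against 45.7% of all genes in both fits), and of the 131 that were lower 69 were lower (52.7%, against 54.2% of all genes lower with vehicle). Genes are not independent replicates, so these shares are given without a test. When the difference between the treatments in the outcome change was itself tested, 0 of 7820 genes were called (0%; edgeR interaction term, Benjamini-Hochberg adjustment), with 1069 (13.7%) at an unadjusted p below 0.05, while DESeq2 called 514 of 5698 (9.02%). The 4 named genes had an interaction adjusted p from 0.298 to 0.485 (edgeR).

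The outcome groups were also compared by the number of embryos that read each gene. Of 10770 genes read in at least 1 of the 18 embryos, 2207 were read in exactly 1. Over these genes, 63.3% of all values in single libraries were 0, 4.34% lay from 1 to 4 counts, 6.07% from 5 to 49 and 26.3% at 50 or more. Genes read in 0, 1, 2, 3 and 4 of the maintained embryos numbered 3197, 3239, 2187, 1332 and 815, and the median share of not established embryos reading them was 7.14%, 14.3%, 35.7%, 57.1% and 85.7%. How often a gene was read in one outcome group increased with how often it was read in the other. Fisher's exact test (two-sided) called 0 genes (0%) after Benjamini-Hochberg adjustment, with a smallest adjusted p of 1 and 141 genes (1.31%) at an unadjusted p below 0.05. Of those, 131 (1.22%) were read more often and 10 (0.0929%) less often in maintained embryos. The group sizes favour that balance, since a gene read in 2 maintained and 0 other embryos already passes, while a gene read in no maintained embryo must be read in 10 or more of the others. With 4 against 14 embryos the smallest p possible is 0.000327, and 71 genes would have had to reach it for a call, whereas the smallest p seen was 0.0049.

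No gene marked one outcome outright. Not 1 gene was read in all 4 maintained embryos and in no more than 2 of the 14 others, and 12 were read in all 4 and in at most 4 of the others. In the other direction 0 genes were missing from every maintained embryo and read in 12 or more of the rest, and 5 were missing and read in 10 or 11. A further 5 genes were read in 3 of the 4 maintained but in 0 of the 14 not established embryos. All these counts are out of the 10770 genes read in at least 1 embryo.

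**Figure D5:**
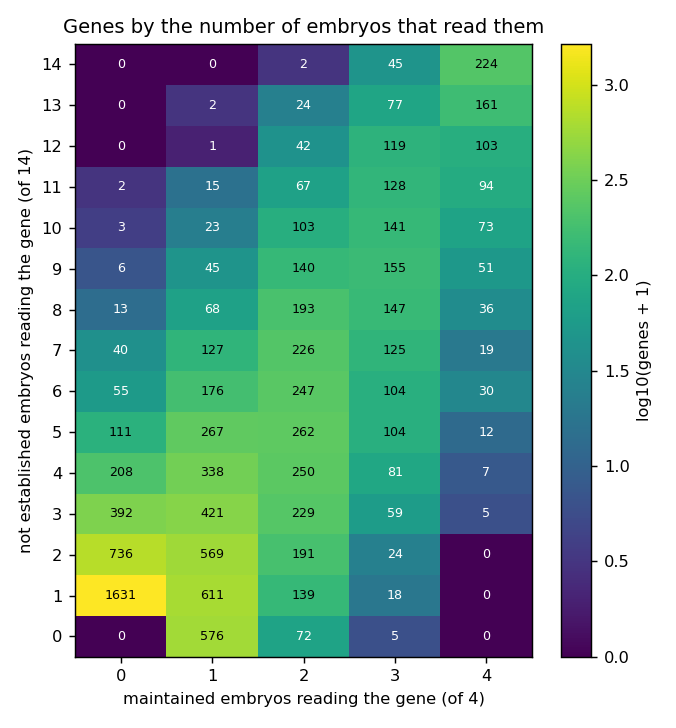
Number of genes (printed in each cell, coloured on a log scale) by how many of the 4 maintained embryos (horizontal) and of the 14 not established embryos (vertical) read them with 5 or more counts. The corners that would mark one outcome, 4 against 0 and 0 against 14, hold 0 genes, and 224 genes sit at 4 and 14.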

How the data were processed

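The deposited table gives the authors' read counts, unnormalized whole numbers, for each Ensembl bovine gene and demi-blastocyst. RNA came from a column kit for small samples and libraries from the NuGEN Ovation SoLo system with bovine depletion, per the labels' protocols. The submitters' processing notes name UMD3.1, bosTau8 and edgeR without a role; for the aligner, the counter, its strand setting and any removal of duplicates, nothing is stated in the sources used here. Without names, genes that share reads with copies or antisense partners could not be marked.

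Columns were matched to samples by title, and 0 columns were left unmapped. The test was that of edgeR 4.0.16 under R 4.3.3 (filterByExpr on outcome, TMM factors from 0.862 to 1.10, robust quasi-likelihood F test, Benjamini-Hochberg adjustment over all genes tested, threshold 0.05) on the 18 libraries alone. The fold changes' standard errors are the change divided by the root of F. DESeq2 1.42.0 and limma 3.58.1 (voom with sample quality weights) were alternatives. Python 3.11.15 with scipy 1.17.1 gave the exact tests. The tests were checked on simulated counts, where DESeq2 called many genes with none changed at a spread near that of these libraries and equal for every gene. The number of genes read as a covariate was an alternative chosen after seeing the data. The share of mitochondrial counts was planned but needs gene names. The libraries compared, the gene lists and the tests were chosen with earlier results of these data known. The named-gene rule allowed up to 2 called identifiers per direction when genes lack names.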

Additional observations from a re-analysis of the deposited data

Results flagged for a closer look

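Of 13 sets of 4 or 5 embryos examined for 1 value far from the rest, 7 held one. Most values in these sets are 0 or near it, so a single value above the others passes the limit almost by construction. The usual chance rate of about 1 in 20 does not apply to such sets, and 7 of 13 is no measure of an excess. The far values were each the highest of their set. ENSBTAG00000015659 stood at 645 CPM in maintained vehicle embryos and at 179 CPM in maintained CSF2 embryos. ENSBTAG00000001258 stood at 0.986 CPM in maintained CSF2 embryos and at 9.04 CPM in vehicle embryos of lost pregnancies. ENSBTAG00000000913 stood at 108 CPM in maintained CSF2 embryos and at 0.159 CPM, a single count, in vehicle embryos of lost pregnancies. ENSBTAG00000038025 stood at 90.0 CPM in maintained CSF2 embryos.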

How the results depend on the processing

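The count of 0 genes called between maintained and not established vehicle embryos became 244 with DESeq2 (2 higher, 242 lower), 5 with limma voom, 587 with no filter (583 higher, 4 lower), 467 with all 40 deeper libraries in the fit (466 higher, 1 lower), 10 with the 2 shallow vehicle libraries and 13 with bias-adjusted deviance. It was 0 with DESeq2 size factors, library totals, the stricter filter, an adjusted p of 0.10 or the number of genes read as a covariate, and between 0 and 0 with each library left out. All 583 higher calls made with no filter were genes that the filter removes; the cause of the other differences was not tested. The interaction count of 0 was 514 with DESeq2 (124 higher, 390 lower), 0 with its size factors in edgeR, and 0 without each maintained library. The count by Fisher's exact test was 0 at minimums of 1 and 10 counts and without each library.

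The difference in total count (370118) turned to -492498 with the 2 shallow libraries and ranged from -118088 to 782455 with each library left out. That in genes read (293) turned to -221 with the shallow libraries and ranged from -324 to 848. That in the percent of counts in the 20 most abundant genes (1.99) ranged from 0.195 to 3.55. The 4 named genes kept their sign in every alternative that tested them, but not their size. They were chosen on these same libraries, so the kept sign is no further evidence. The stricter filter removed all 4, and the 2 higher ones were not tested with the shallow libraries added. ENSBTAG00000000913 went from -12.90 to -2.51 with the shallow libraries, of which maintained replicate 8 held 2 counts of it. With voom it went to -4.43, and ENSBTAG00000038025 went from -12.76 to -3.68. Where the maintained group is at 0, the fitted values depend on the small count added. ENSBTAG00000015659 went from 7.39 to 4.17 with voom. For these genes, bias-adjusted deviance called both higher ones (adjusted p = 0.041 each) while DESeq2 and the fit without a filter called both lower ones. No paired analysis was possible because the labels give no sire, dam, recipient or day of culture by which embryos could be paired. With 4 maintained embryos, genes read in few libraries are limited in precision whatever the total count.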

Other observations

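The 2 shallow vehicle libraries, not used above, held few counts of the 4 named genes: maintained replicate 8 had 2 counts of ENSBTAG00000000913 (14.5 CPM of its 137808 counts) and no count of the other 3, and not established replicate 29 had no count of any.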
